A study of Homo sapiens with 6 samples.

Results

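The splicing machinery of HepG2 cells, a line derived from a human liver tumour, was followed here at the RNA level in WT cells and in cells in which FN3K (fructosamine 3 kinase, an enzyme that removes sugars bound to proteins) had been knocked out by CRISPR. Members were all loci whose gene symbol begins with SRSF, SF3A, SF3B, HNRNP, SNRNP, SNRP followed by a letter from A to G, PRPF, U2AF, LSM, RBM, CLK, SRRM or TRA2, with a digit after the symbols that are numbered. The rule took 79 of 6357 loci and used no measured value. The 2 groups were WT HepG2 and FN3K KO HepG2, with 3 plates each, grown in the same medium with serum and differing in the knockout alone, as far as the labels say. How many clones the FN3K KO plates came from is not given in the sources used here, and p-values therefore measure the spread between plates of 1 culture or more.

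Splicing removes introns from transcripts by means of the spliceosome, which is built anew on each intron from small nuclear ribonucleoproteins (snRNPs). The U1 and U2 snRNPs mark the ends of the intron, the U4/U6.U5 tri-snRNP then joins, and the Prp19 complex takes part in making the assembly active. SR proteins mostly favour, and many hnRNP proteins mostly oppose, the use of the exons to which they bind, and many of these genes are known to control their own mRNA through exons or introns that lead to decay of the transcript.

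Values were FPKM, fragments scaled by transcript length and by library, which allow levels to be compared between genes per length. FPKM summed over all loci to between 289983 and 314164 per library. Without counts in the table, sequencing depth is unknown. FN3K itself lay at 27.7, 21.9 and 23.2 FPKM in WT cells, in the order of the replicate numbers used throughout, and at 0.782, 1.03 and 0.704 FPKM in the FN3K KO libraries, so that the libraries matched their labels. Differences are given as log2 fold changes of FN3K KO against WT on the log2(FPKM + 1) scale, which understates changes at low levels, and loci are called at a Benjamini-Hochberg adjusted p under 0.05 over all 6357 loci in limma. The median of all loci was -0.14 on this scale. When each library was instead divided by the median of its ratios to the average library (median ratio scaling), the median of all loci moved by about 0.12 to -0.017. Counts are therefore given under both scalings for the main groups of genes. Of the 18 markers listed for hepatocyte-like HepG2 cells, 12 were in the table, and their summed level was 11635 to 11770 FPKM in WT and 18170 to 19333 FPKM in FN3K KO. The markers went both ways, with 6 called higher, led in level by AFP (1537 FPKM on average in WT and 6206 in FN3K KO) and APOA1 (1516 and 3339), HNF4A called lower (-0.35) and 5 not called. Of the blood cell markers, 1 of 5 was listed (CD14, 0.446 to 2.62 FPKM in WT and 13.1 to 16.1 in FN3K KO), and of those of fibroblasts and endothelial cells 0 of 5 and 0 of 4. Whether these shifts bear on the splicing genes was not tested.

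Sequence decides how far some members can be told apart by short reads, and bears on the results below. The member with the lowest adjusted p, HNRNPA1 (chr12:54280193-54287088, plus strand), has near copies among the members, HNRNPA1P7 (chr18:32412214-32413176, minus strand, a processed pseudogene of 1 exon) and HNRNPA1P48 (chr16:51553436-51647132, plus strand, 2 exons). Over the 960 bases of the HNRNPA1 coding sequence, HNRNPA1P7 differed at 9 bases and HNRNPA1P48 at 6. U2AF1 (chr21:43092956-43107587) and U2AF1L5 (chr21:6484623-6499261) were identical over all 720 bases of their coding sequences, and every 50-base window of the U2AF1L5 transcript also occurs in U2AF1. In all, 38 of the 79 members shared no 50-base window with a transcript of another gene, 18 shared over 10% of their windows, and 5 over 50%. Of the 39 called members, 6 shared over 10%.

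Promoters are shown for members lower in FN3K KO under each of 4 scalings (FPKM as deposited, a common 75th percentile, median ratios, a common sum of FPKM). A second condition was a RefSeq start (GRCh38.p14) within 50 bases of the outer start of the annotated gene, which can differ from the start of the listed transcript. They run from 250 bases before to 50 bases after the start, with the motifs named further on in capitals. RBM15B and RBM3 encode RNA-binding proteins, and PRPF38B encodes a relative of a yeast factor needed for spliceosome activation.

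RBM15B, chr3:51391035-51391334, plus strand: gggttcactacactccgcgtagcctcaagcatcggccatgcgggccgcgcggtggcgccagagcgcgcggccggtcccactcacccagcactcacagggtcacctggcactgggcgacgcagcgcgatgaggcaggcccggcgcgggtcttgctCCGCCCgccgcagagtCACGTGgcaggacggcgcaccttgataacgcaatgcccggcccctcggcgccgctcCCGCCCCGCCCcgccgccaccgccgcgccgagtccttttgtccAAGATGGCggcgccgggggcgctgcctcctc
PRPF38B, chr1:108692060-108692359, plus strand: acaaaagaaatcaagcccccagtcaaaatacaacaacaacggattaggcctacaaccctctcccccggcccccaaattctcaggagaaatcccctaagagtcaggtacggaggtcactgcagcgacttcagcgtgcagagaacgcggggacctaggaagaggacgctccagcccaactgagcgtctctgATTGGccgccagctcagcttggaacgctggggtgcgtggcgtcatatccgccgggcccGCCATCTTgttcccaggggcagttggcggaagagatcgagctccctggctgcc
RBM3, chrX:48574234-48574533, plus strand: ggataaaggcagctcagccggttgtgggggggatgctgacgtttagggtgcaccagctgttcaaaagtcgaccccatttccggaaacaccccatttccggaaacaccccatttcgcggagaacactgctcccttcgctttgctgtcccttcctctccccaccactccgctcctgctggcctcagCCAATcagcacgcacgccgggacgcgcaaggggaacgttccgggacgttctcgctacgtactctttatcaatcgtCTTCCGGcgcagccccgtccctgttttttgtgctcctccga

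RBM15B and PRPF38B hold the letters of the YY1 core close to the start, and RBM3 holds a CCAAT box and an ETS core. A match of letters is a description of the window and does not show that a factor binds there.

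Of the 79 members, 36 (45.6%) were called lower and 3 (3.80%) higher, beside 36.5% of all loci called lower and 21.2% called higher, and 40 were not called. The lower members include HNRNPA1, which packages new transcripts and represses exons, the SF3A and SF3B subunits SF3A2, SF3A3, SF3B2, SF3B3 and SF3B5, which hold the U2 snRNP at the branch point, and PRPF8 and SNRNP200, the core scaffold and the helicase of the U5 snRNP. Of these named genes, only HNRNPA1, SF3A2 and SF3B3 stayed called lower with median ratio scaling. The subunits SF3A1, SF3B1, SF3B4 and SF3B6 were not called on FPKM as deposited. In bulk RNA, fewer cells with a transcript and less of it per cell cannot be told apart. The 3 higher members were SNRPD3, SNRNP25 and U2AF1L5. The median log2 fold change of the members was -0.19, beside -0.14 for all loci, and the mean level was lower in FN3K KO for 65 members and higher for 14, beside 3939 and 2418 of the 6357 loci. Every FN3K KO library was below every WT library for 38 members (48.1%, beside 39.8% of all loci) and above for 6 (7.59%, beside 23.6%), and the groups overlapped for 35. A single member, HNRNPA1P7, passed an unadjusted p under 0.05 together with a log2 fold change beyond 1, as 7.63% of all loci did.

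**Figure D1:**
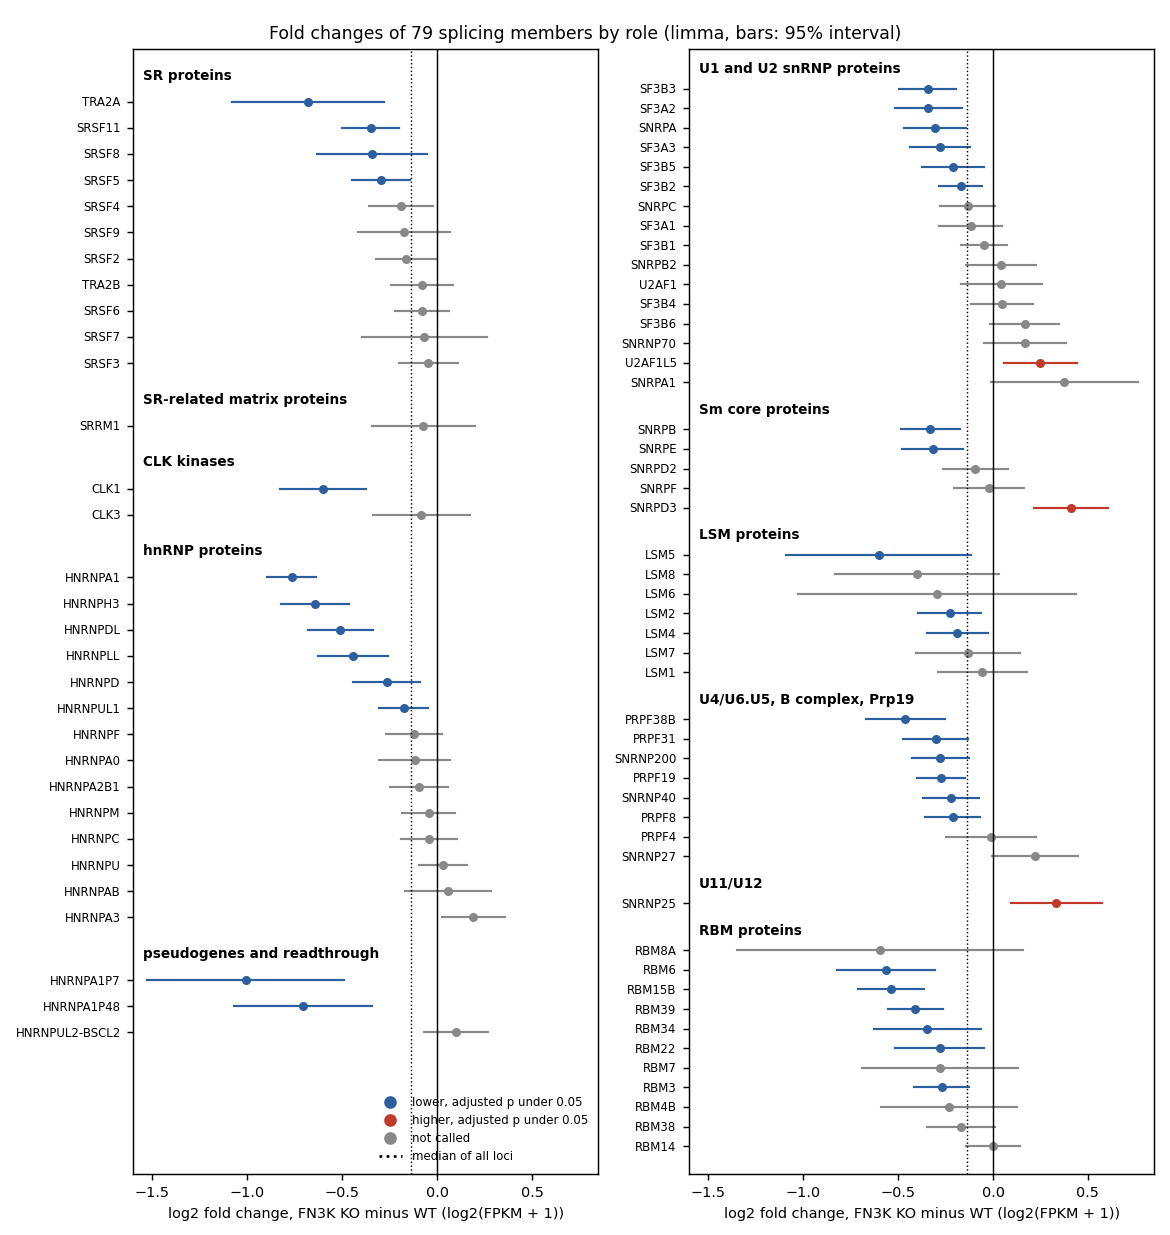
Log2 fold change of each of the 79 members (x axis, FN3K KO minus WT on the log2(FPKM + 1) scale), grouped by role, with 95% intervals from limma. Blue points (36) were called lower and red points (3) higher at an adjusted p under 0.05, grey points (40) were not called, and the dotted line is the median of all loci at -0.14. With median ratio scaling 19 of the blue points stay called lower and 10 members are called higher.

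The balance of calls depended on the scaling. With median ratio scaling, 19 of the 79 members were called lower and 10 higher, beside 25.6% and 28.4% of all loci. The share called lower was then no longer above that of all loci, and the share called higher was still below it. The median of the members was -0.058, beside -0.017 for all loci. All 19 were among the 36. They were CLK1, HNRNPA1, HNRNPA1P7, HNRNPA1P48, HNRNPDL, HNRNPH3, HNRNPLL, PRPF38B, RBM3, RBM6, RBM15B, RBM39, SF3A2, SF3B3, SNRPA, SNRPB, SNRPE, SRSF11 and TRA2A, and the same 19 were called lower in every fit tried except the linear model of Ballgown with its library adjustment and the limit on the fold change. The Ballgown model called 6 members lower (HNRNPA1, HNRNPLL, PRPF38B, RBM15B, SRSF11 and SRSF5) and 1 higher (HNRNPAB). Of all 6357 loci it called 521 lower and 606 higher. In this fit the share of members called lower was near that of all loci, and the share called higher was below it. SNRPD3 was the only member called higher in all fits other than these. Leaving out WT replicate 3 brought the members called lower from 36 to 24, and leaving out WT replicate 1 brought them to 40. The shares of all loci called in these fits are not given here, so these changes cannot be read as particular to the members.

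Summed over all members, the level was 2552, 2745 and 2848 FPKM in WT and 2286, 2349 and 2359 FPKM in FN3K KO. The groups did not overlap, WT replicate 1 was the lowest of the WT libraries, and the mean was 14.1% lower in FN3K KO. The summed FPKM of all loci that are no members was 1.89% higher in FN3K KO, with overlapping groups. Both sums are on FPKM as deposited and were not made with median ratio scaling. That scaling moved the median log2 fold change of the members from -0.19 to -0.058. Abundant members weigh most in the sum. HNRNPA1 went from a mean of 249.25 FPKM in WT to 146.04 in FN3K KO, and SNRPB from 320.42 to 254.67. The mean level was lower in FN3K KO for 65 members and higher for 14.

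**Figure D2:**
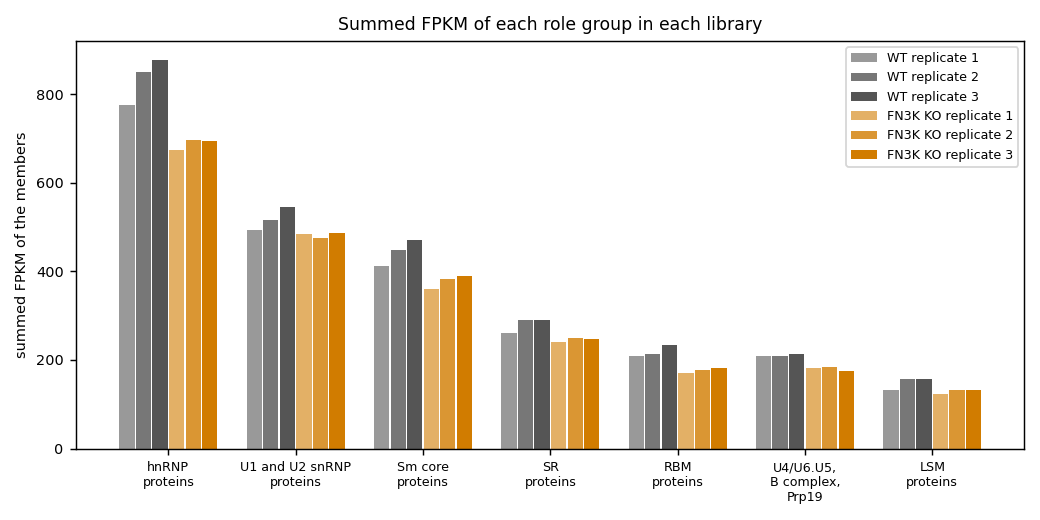
Summed FPKM of the members (y axis) of each role group in each library, with WT replicates in grey and FN3K KO replicates in orange. The hnRNP proteins hold the most, 776 to 877 FPKM in WT and 674 to 697 in FN3K KO, and the LSM proteins are the only group drawn whose WT and FN3K KO libraries overlap. Sums follow the FPKM as deposited.

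The hnRNP proteins coat nascent transcripts and many of them act as repressors of exons. Of 14 members, 6 (42.9%) were called lower and 0 higher, beside 36.5% and 21.2% of all loci. Their median was -0.12, which turned to 0.0095 with median ratio scaling. HNRNPA1, the most abundant of them, had 238, 249 and 261 FPKM in WT and 147, 142 and 150 FPKM in FN3K KO. All FN3K KO libraries lay far below all WT libraries, a fall of 41.4% in the mean (log2 fold change -0.77, standard error 0.057, adjusted p = 9.5e-06), and the log2 fold change with median ratio scaling was -0.63. HNRNPH3, a member of the group that binds runs of G, had 26.9, 32.8 and 27.8 FPKM in WT and 18.7, 18.2 and 17.9 in FN3K KO, with no overlap and a log2 fold change of -0.64 (standard error 0.080, adjusted p = 0.00019). HNRNPD, which binds AU-rich elements, and its relative HNRNPDL lie 48061 bases apart on chromosome 4. HNRNPDL fell by 0.51 on the log2 scale (adjusted p = 0.00057) and HNRNPD by 0.27 (adjusted p = 0.017), and only the former stayed called with median ratio scaling. HNRNPLL, a regulator known from lymphocytes, went from 11.2, 10.6 and 11.1 FPKM in WT to 8.26, 7.67 and 7.47 in FN3K KO (adjusted p = 0.0017). HNRNPUL1 was also called lower, by 0.18, but not with median ratio scaling.

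The other hnRNP members were not called on FPKM as deposited. HNRNPC, which binds runs of U, had 55.8, 62.6 and 63.3 FPKM in WT and 57.1, 57.1 and 62.0 in FN3K KO, so that the groups overlapped (95% interval of the log2 fold change -0.19 to 0.11). HNRNPA2B1, a relative of HNRNPA1, had a mean of 83.9 FPKM in WT and 78.3 in FN3K KO, with an interval of -0.25 to 0.058. It was called lower only when WT replicate 1 was left out. The interval of HNRNPU, a nuclear scaffold protein, was -0.094 to 0.16, and it was called higher with median ratio scaling. HNRNPA3 had 33.1, 38.5 and 40.01 FPKM in WT and 42.9, 41.7 and 42.8 in FN3K KO. Its groups did not overlap, and the adjusted p was 0.051 (limma). HNRNPA3 was called higher with median ratio scaling, the common 75th percentile or the replicate number as a block, and without WT replicate 3. It shares 49.9% of its 50-base windows with other genes.

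**Figure D3:**
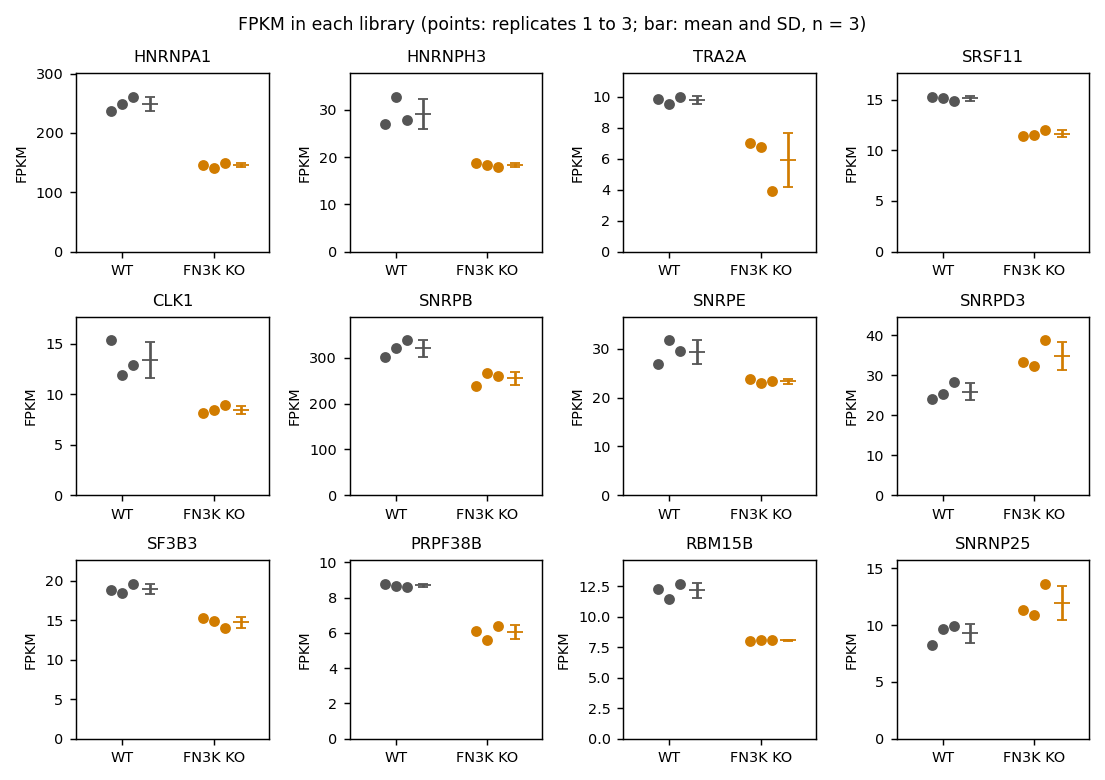
FPKM (y axis, from 0) of 12 members in each library, with WT in grey and FN3K KO in orange; points are replicates 1 to 3 and the bar beside them is the mean with its SD (n = 3). HNRNPA1, HNRNPH3, TRA2A, SRSF11, CLK1, SNRPB, SNRPE, SF3B3, PRPF38B and RBM15B are lower in all FN3K KO libraries, and SNRPD3 and SNRNP25 higher, and these directions hold with median ratio scaling.

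The copies of HNRNPA1 had low levels and were called lower with it. HNRNPA1P7 had 4.90, 6.97 and 5.55 FPKM in WT and 2.73, 1.42 and 3.20 in FN3K KO, a log2 fold change of -1.01 (standard error 0.23, adjusted p = 0.0052). HNRNPA1P48 had 4.24, 5.58 and 4.59 FPKM in WT and 2.38, 2.75 and 2.5 in FN3K KO, a log2 fold change of -0.71 (standard error 0.16, adjusted p = 0.0052). Neither pair of groups overlapped. HNRNPA1P48 stood at 1.62 to 2.24% of the level of HNRNPA1 in all 6 libraries, and HNRNPA1P7 at no more than 2.80%. As HNRNPA1P7 shares 76.3% and HNRNPA1P48 49.2% of their 50-base windows with other genes, reads of HNRNPA1 assigned to the copies cannot be told apart from their own, and the 3 calls are not independent. HNRNPUL2-BSCL2, a readthrough of neighbouring genes that shares 98.8% of its windows, had 10.7 to 11.5 FPKM in WT and 11.3 to 12.5 in FN3K KO and was not called.

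SR proteins carry domains rich in serine and arginine and mostly promote the use of exons. Of 11 members (SRSF2 to SRSF9, SRSF11, TRA2A and TRA2B), 4 were called lower (36.4%), which is near the 36.5% of all loci. None was called higher, beside 21.2% of all loci. Their median was -0.17, and with median ratio scaling 2 stayed called. TRA2A, a homologue of the fly protein transformer-2, had 9.83, 9.52 and 10.0 FPKM in WT and 7.02, 6.77 and 3.89 in FN3K KO. The groups did not overlap, FN3K KO replicate 3 lay well below the other two, and the log2 fold change was -0.68 (standard error 0.18, adjusted p = 0.010) and -0.45 in the weakest fit that left out a library. TRA2B, its paralogue, had 20.7, 24 and 23.6 FPKM in WT and 21.6, 22.1 and 20.6 in FN3K KO and was not called. SRSF11 had 15.3, 15.2 and 14.8 FPKM in WT and 11.4, 11.6 and 12 in FN3K KO, a narrow spread within each group and no overlap (log2 fold change -0.35, standard error 0.066, adjusted p = 0.0020). SRSF5 fell by 0.30 (adjusted p = 0.0052) and SRSF8 by 0.34 (adjusted p = 0.045), and neither stayed called with median ratio scaling. The groups of SRSF8 overlapped.

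SRSF9, the most abundant SR gene here, had 56.6, 71.0 and 72.5 FPKM in WT and 54.4, 66.5 and 55.7 in FN3K KO. Its groups overlapped and it was not called, but without WT replicate 1 it was called lower. SRSF3, the smallest of the family, had an interval of -0.20 to 0.11, and the transcript listed for its locus is annotated as a target of nonsense-mediated decay. SRSF7 was 8.36 FPKM in WT replicate 1 and 12.8 in both other WT libraries, with 10.0 to 10.9 FPKM in FN3K KO, and was called lower only when WT replicate 1 was left out. SRRM1, a matrix protein with repeats of serine and arginine, had 8.25, 9.18 and 10.1 FPKM in WT and 10.3, 7.61 and 8.26 in FN3K KO, with overlap and a log2 fold change of -0.072 that turned to 0.048 with median ratio scaling.

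CLK kinases phosphorylate SR proteins and are themselves regulated by splicing. CLK1 had 15.4, 11.9 and 12.9 FPKM in WT and 8.12, 8.40 and 8.89 in FN3K KO. All FN3K KO libraries were below all WT libraries, and the mean was 36.8% lower (log2 fold change -0.60, standard error 0.10, adjusted p = 0.0010). CLK3 had 5.99, 6.18 and 7.05 FPKM in WT and 6.45, 6.13 and 5.39 in FN3K KO, with overlap and an interval of -0.34 to 0.17.

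Proteins of the U1 and U2 snRNPs and the U2AF factors recognise the splice sites. Of 16 members, 6 were called lower (37.5%, near the 36.5% of all loci) and 1 higher (6.25%, beside 21.2%). The median of -0.084 turned to 0.044 with median ratio scaling. Within the group, the SF3A and SF3B subunits had 5 of 9 called lower (55.6%) and 0 higher, with a median of -0.17. SF3B3, the scaffold of SF3B, had 18.8, 18.5 and 19.7 FPKM in WT and 15.3, 15.0 and 14.0 in FN3K KO, with no overlap (log2 fold change -0.34, standard error 0.066, adjusted p = 0.0022). SF3A2 had 29.7, 28.5 and 34.1 FPKM in WT and 22.6, 24.3 and 25.2 in FN3K KO (log2 fold change -0.34, standard error 0.079, adjusted p = 0.0058), again with no overlap. Both stayed called lower with median ratio scaling, as did the U1 protein SNRPA (20.7, 21.3 and 23.7 FPKM in WT, 18.1, 16.6 and 17.8 in FN3K KO), while SF3A3, SF3B2 and SF3B5 did not. SF3B5, a small subunit and the most abundant of the group, had 108, 117 and 127 FPKM in WT and 95.3, 102 and 106 in FN3K KO, with no overlap (log2 fold change -0.21, adjusted p = 0.032), and was no longer called in 4 of the fits that left out a library.

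SF3B1, the largest SF3B subunit and a gene often mutated in blood cancers, had 27.8, 28.1 and 29.2 FPKM in WT and 27.1, 27.1 and 27.9 in FN3K KO. Its groups overlapped, and the 95% interval of its log2 fold change was -0.17 to 0.074. SNRPA1, which pairs with SNRPB2 on the U2 snRNA, had 7.78, 13.2 and 13.4 FPKM in WT and 14.9, 14.4 and 15.1 in FN3K KO. All FN3K KO libraries were above all WT libraries, WT replicate 1 stood apart, and the gene was not called (log2 fold change 0.38, standard error 0.17, adjusted p = 0.087), though it was called higher with median ratio scaling. SNRNP70, the U1 protein that carries SR-like repeats, SF3B6, at the branch point, and SNRNP27, of the tri-snRNP, were likewise not called on FPKM as deposited and called higher with that scaling. SF3B6 and SNRPA1 were also called higher with the common 75th percentile, and SNRNP27 without WT replicate 1.

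U2AF1, the small U2AF subunit that reads the AG at the end of the intron, and its copy U2AF1L5 have to be read together. U2AF1L5 had 13, 15.3 and 15.4 FPKM in WT and 18.3, 17.6 and 16.5 in FN3K KO, without overlap, and was called higher (log2 fold change 0.25, standard error 0.084, adjusted p = 0.030). U2AF1 had 17.8, 19.7 and 21.1 FPKM in WT and 21.4, 21.6 and 17.7 in FN3K KO, with overlap. Their sum was 30.8, 35.0 and 36.4 FPKM in WT and 39.7, 39.2 and 34.1 in FN3K KO. The sums overlapped between the groups, and no test was made of them.

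Sm proteins form the ring around the snRNAs of the major and the minor spliceosome. Of the 7 proteins of the ring, 5 were listed, with 2 called lower, 1 higher and 2 not called. The shares are 40% lower and 20% higher, beside 36.5% and 21.2% of all loci. SNRPB, the most abundant of all members, had 301, 322 and 338 FPKM in WT and 239, 266 and 260 in FN3K KO, with no overlap (log2 fold change -0.33, standard error 0.068, adjusted p = 0.0033). SNRPE had 26.9, 31.8 and 29.6 FPKM in WT and 23.9, 22.9 and 23.3 in FN3K KO, with no overlap (log2 fold change -0.32, standard error 0.070, adjusted p = 0.0046). SNRPD3 went the other way, with 24.1, 25.3 and 28.3 FPKM in WT and 33.4, 32.3 and 38.8 in FN3K KO. All FN3K KO libraries were above all WT libraries and the mean was 34.5% higher (log2 fold change 0.41, standard error 0.086, adjusted p = 0.0034), and 0.34 to 0.48 with each library left out in turn. SNRPD2 and SNRPF overlapped between the groups, with intervals of -0.26 to 0.079 and -0.20 to 0.16.

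The ratio of SNRPD3 to SNRPB within a library does not depend on how libraries are scaled. It was 0.0800, 0.0786 and 0.0838 in WT and 0.140, 0.122 and 0.149 in FN3K KO, and the ratio to SNRPE was 0.797 to 0.957 in WT and 1.40 to 1.66 in FN3K KO. These pairs were chosen after their values were seen, and the ratios are given as a description with no test. SNRPD3 overlaps genes on both strands in the annotation, GGT1 on its own strand and GUCD1 and LRRC75B on the other, and whether their reads entered its value was not tested.

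LSM proteins form a like ring on the U6 snRNA (LSM2 to LSM8) and, with LSM1 in place of LSM8, a ring that acts in mRNA decay in the cytoplasm. Of 7 members (LSM1, LSM2 and LSM4 to LSM8), 3 (42.9%) were called lower and 0 higher, beside 36.5% and 21.2% of all loci. Their median was -0.23, and with median ratio scaling 0 were called in either direction. LSM5 had 3.50, 3.73 and 4.41 FPKM in WT and 3.12, 1.63 and 2.05 in FN3K KO, with no overlap (log2 fold change -0.60, standard error 0.21, adjusted p = 0.038). It lost its call in 5 of the 6 fits that left out a library. LSM2 had 29.5, 31.6 and 34.2 FPKM in WT and 28.8, 25.5 and 26.7 in FN3K KO (log2 fold change -0.23, standard error 0.073, adjusted p = 0.025), without overlap. LSM7, the most abundant, had 44.5, 59.8 and 58.1 FPKM in WT and 43.6, 55.5 and 48.3 in FN3K KO, with overlap and an interval of -0.41 to 0.14. LSM6, the LSM member with the widest interval (-1.03 to 0.44), lay between 1.61 and 5.06 FPKM over the 6 libraries.

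Among the groups with 5 or more members, that of the U4/U6.U5 tri-snRNP, the B complex and Prp19 had the highest share called lower. It was 6 of 8 (75%, beside 36.5% of all loci), with 0 called higher (beside 21.2%) and a median of -0.25. With median ratio scaling 1 was called lower and 1 higher. PRPF38B had 8.79, 8.66 and 8.60 FPKM in WT and 6.11, 5.61 and 6.38 in FN3K KO, with no overlap (log2 fold change -0.46, standard error 0.092, adjusted p = 0.0026). PRPF31, which joins U4/U6 to U5 and is mutated in retinitis pigmentosa, had 15.3, 14.6 and 16.4 FPKM in WT and 11.7, 12.2 and 13.1 in FN3K KO, also with no overlap (log2 fold change -0.30, standard error 0.075, adjusted p = 0.0085). PRPF19, the ubiquitin ligase of the Prp19 complex, had 60.0, 58.2 and 62.6 FPKM in WT and 52.2, 49.0 and 47.9 in FN3K KO (log2 fold change -0.27, standard error 0.056, adjusted p = 0.0032).

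Among the U5 proteins, PRPF8 fell by 0.21, SNRNP40 by 0.22 and SNRNP200 by 0.28 on the log2 scale, with adjusted p between 0.0068 and 0.018 in limma and no overlap between the groups for any of them, and with median ratio scaling they were not called. EFTUD2, the U5 GTPase, which the symbols do not take, was not called (log2 fold change 0.12, adjusted p = 0.11), and it was called higher with median ratio scaling. TXNL4A, a further U5 protein outside the symbols, lay at -0.012 and was not called. PRPF4, a U4/U6 protein, had an interval of -0.25 to 0.23.

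SNRNP25, a protein of the U11/U12 snRNP that serves the rare minor introns, was the only member grouped as particular to the minor spliceosome. It had 8.28, 9.63 and 9.88 FPKM in WT and 11.3, 10.9 and 13.7 in FN3K KO. The groups did not overlap (log2 fold change 0.33, standard error 0.11, adjusted p = 0.024), and the call was lost without WT replicate 1 or FN3K KO replicate 3. On the opposite strand SNRNP25 overlaps POLR3K.

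RBM proteins share an RNA-binding domain but differ in what they do. Of 11 members, 6 (54.5%) were called lower and 0 higher, beside 36.5% and 21.2% of all loci. Their median was -0.28, and 4 stayed called with median ratio scaling. RBM15B, which guides the methylation of adenosines in mRNA, had 12.3, 11.5 and 12.7 FPKM in WT and 8.04, 8.06 and 8.08 in FN3K KO, with almost no spread in FN3K KO and no overlap (log2 fold change -0.54, standard error 0.077, adjusted p = 0.00045). RBM6 had 7.97, 7.92 and 9.29 FPKM in WT and 4.73, 5.96 and 5.39 in FN3K KO (log2 fold change -0.56, standard error 0.11, adjusted p = 0.0030). RBM3, which is induced by cold, had 62.8, 69.1 and 71.2 FPKM in WT and 53.1, 57.9 and 56.8 in FN3K KO, with no overlap (log2 fold change -0.27, standard error 0.063, adjusted p = 0.0062).

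RBM39, a U2AF-related factor, had 46.1, 43.2 and 44.9 FPKM in WT and 31.1, 35.5 and 33.8 in FN3K KO, with no overlap (log2 fold change -0.41, adjusted p = 0.00068). The transcript listed for its locus is annotated as a retained intron. RBM8A, of the exon junction complex, had 4.79, 5.92 and 15.2 FPKM in WT and 4.80, 3.93 and 5.56 in FN3K KO. WT replicate 3 stood far above all other libraries, and the gene was not called (95% interval -1.35 to 0.16). It was called lower with the replicate number as a block. RBM14 had the same mean of 22.1 FPKM in both groups. RBM22 and RBM34 were called lower and lost the call in 4 of the fits that left out a library. RBM34 shares 77.5% of its windows with ARID4B.

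**Figure D4:**
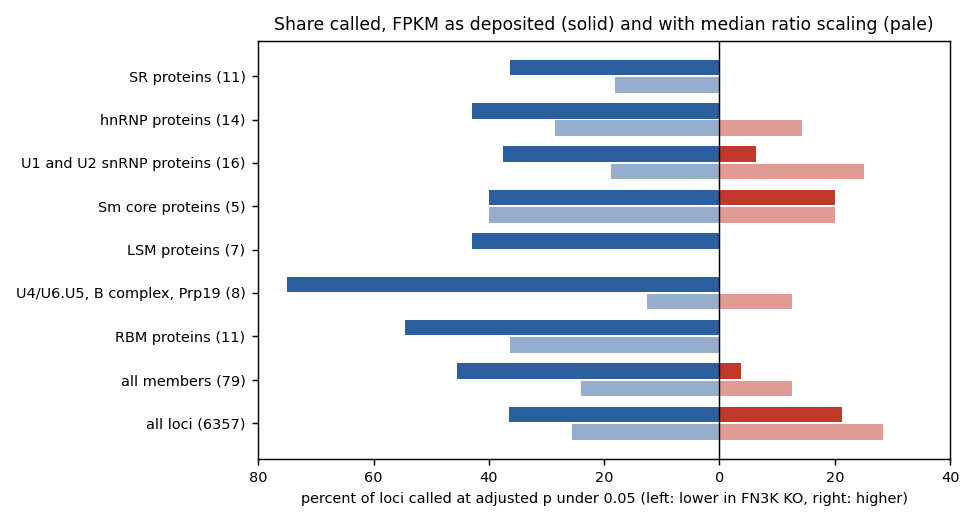
Percent of loci called lower (left) and higher (right) in FN3K KO for each role group with 5 or more members, all members and all loci, the number of loci being in brackets. Solid bars use FPKM as deposited and pale bars median ratio scaling, under which the share of all members called lower goes from 36 to 19 of 79 and that called higher from 3 to 10.

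Called members were found at all levels. Of the 17 members under 10 FPKM on average, 9 were called lower (52.9%, beside 31.2% of all loci at that level), of the 36 between 10 and 30 FPKM 16 (44.4%, beside 39.5%), and of the 26 at 30 FPKM or more 11 (42.3%, beside 41%). Of all loci, 18.3%, 20.8% and 26.8% were called higher at these levels, against 0, 2 and 1 members. All members had a mean of at least 1 FPKM, so that the fit limited to loci of at least 1 FPKM kept all of them. Genes that fit the symbols but are not listed by name, such as SRSF1, U2AF2 and HNRNPK, could not be followed. The median length of the listed transcript was 2340.5 bases for the members called lower and 2172 for those not called, and the median GC content 47.8% and 47.5%. In the annotation, 37 members overlap a gene on the opposite strand, 16 of them called. Whether the libraries kept the strand is not given in the sources used here.

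**Figure D5:**
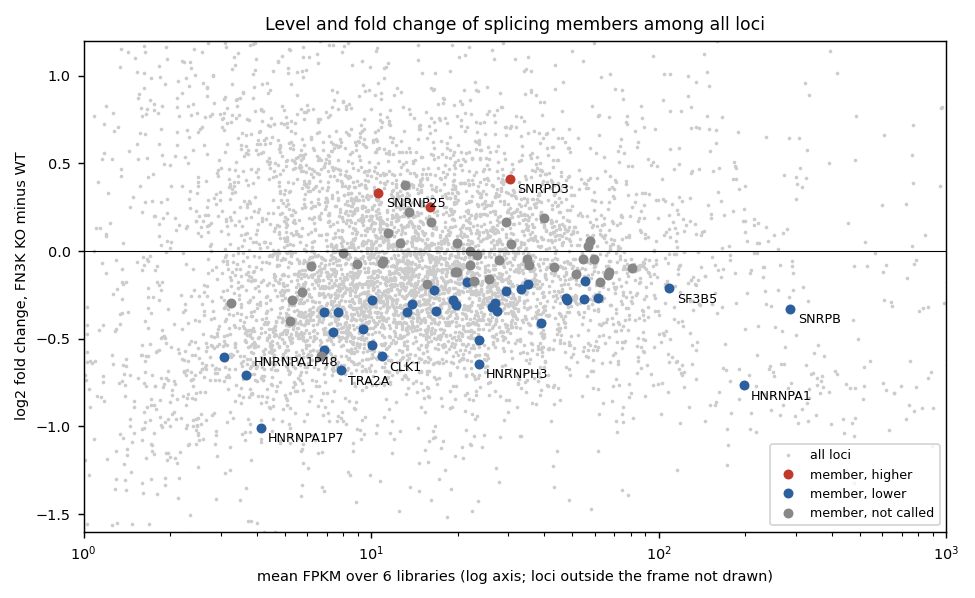
Mean FPKM over the 6 libraries (x axis, log scale) and log2 fold change of FN3K KO against WT (y axis) of all loci (pale grey) and of the members, called lower (blue), higher (red) or not called (dark grey). HNRNPA1 and SNRPB, the most abundant members, lie at -0.77 and -0.33, and SNRPD3 at 0.41. With median ratio scaling all points lie about 0.12 higher, and the directions of the genes labelled hold.

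Promoters in RefSeq were matched for 69 of the 79 members, and the start lay within 50 bases of the outer start of the annotated gene for 26 of them. Motifs were searched as letters on both strands in the windows from 250 bases before to 50 after the start. None of the motifs contains another, though their matches can share bases. The ETS core (CCGGAAG) was found in 25 of 69 members (36.2%), beside 21.3% of the 3726 promoters of loci in the table and 10.7% of all 27305 promoters. It was in 43.3% of the members called lower and 32.4% of those not called. The CCAAT box (CCAAT) was in 52.2% of members, 38.0% of the promoters of the table and 35.7% of all, with 50% in members called lower and 54.1% in those not called. The GC box (GGGCGG) was in 68.1% of members and 73.4% of the promoters of the table, the TATA box (TATAAA) in 8.70% and 5.48%, the YY1 core (AAGATGGC) in 10.1% and 7.06%, the E-box (CACGTG) in 11.6% and 11.1%, the NRF1 site (GCGCATGC) in 5.80% and 6.12%, and the CRE (TGACGTCA) in 1.45% and 3.57%. These shares are descriptions, and no test was made of them. A start at C followed by 4 pyrimidines, as in mRNAs of the translation machinery, was seen in 6 of 69 members (8.70%) and 4.04% of all promoters. This start was not counted in the promoters of the table, so that its share among listed loci is unknown.

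Genes that the symbols above do not take came from a list of splicing proteins and factors of neighbouring steps. Those steps include mRNA export, nonsense-mediated decay and the formation of the 3-prime end. The list, called the other splicing proteins below, held 188 genes, of which 95 were in the table. Of these, 40 (42.1%) were called lower and 8 (8.42%) higher, with a median of -0.19, beside the 36.5% and 21.2% of all loci given above. With median ratio scaling 26 were called lower and 13 higher. Partners of the tri-snRNP and the B complex had 5 of 7 called lower, led by SNU13, which binds the U4 snRNA, with 82.4, 90.4 and 91.5 FPKM in WT and 53.6, 56.7 and 57.4 in FN3K KO (log2 fold change -0.65, adjusted p = 3.3e-05), and PPIH, a cyclophilin of the tri-snRNP, at -0.55. Proteins of the Prp19-related complexes and the catalytic steps had 6 of 12 lower, led by SYF2 (-0.63, adjusted p = 9.1e-05) and BUD31 (-0.57, adjusted p = 6.4e-05). Helicases had 4 of 10 lower, led by DDX39B (-0.49), which acts in early assembly and in mRNA export. On FPKM as deposited these 3 lists had 0 genes called higher. Scaled by median ratios, the tri-snRNP partners had 3 called lower, the Prp19-related list 4, and the helicases and GTPase 2 lower and 1 higher, EFTUD2.

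Partners of the U1 and U2 snRNPs and of the minor spliceosome had 5 of 13 lower and 1 higher, HTATSF1 (0.46). The lower ones were led by LUC7L (-0.86) and SF1, the protein that first binds the branch point (-0.59). PDCD7, listed for the minor spliceosome, was also lower (-0.37, adjusted p = 0.0092 in limma) and stayed called with median ratio scaling. Splicing regulators had 9 of 21 lower, led by MBNL1 (-0.80) and the epithelial regulator ESRP2 (-0.69), and 3 higher, led by PNN (0.58, from 16.9, 19.0 and 19.1 FPKM in WT to 27.6, 25.3 and 31.1 in FN3K KO). Of the factors that assemble snRNPs, 2 of 9 were lower, CLNS1A and STRAP, both of which serve the loading of Sm proteins, and 2 higher, GEMIN2 (0.67) and NCBP2 (0.28). Of the exon junction complex and export factors, 2 of 8 were lower, MAGOH (-0.46) and NXT1 (-0.35), and 1 higher, PYM1, which takes the exon junction complex apart (0.92, from 8.84, 12.1 and 12.5 FPKM in WT to 20.7, 22.3 and 22.3 in FN3K KO). Kinases, phosphatases and import factors of SR proteins had 1 of 3 lower (PPP1CC, -0.41), nonsense-mediated decay 2 of 4 (SMG1, -0.49, and SMG5, -0.21), and the formation of the 3-prime end 4 of 9, led by CPSF4 (-0.62), with CPSF1 higher (0.20). After median ratio scaling, the calls were 4 lower and 1 higher for the U1, U2 and minor spliceosome partners and 4 and 5 for the regulators. They were 2 and 3 for the assembly factors, 2 and 2 for the exon junction complex and export, and 1 and 0 for the SR protein kinases and import. Nonsense-mediated decay had 1 and 0, and the formation of the 3-prime end 3 and 1. Of all loci, 36.5% were called lower and 21.2% higher on FPKM as deposited, and 25.6% and 28.4% with median ratio scaling.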

How the data were processed

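RNA from 3 plates each of WT and FN3K KO HepG2 cells had been sequenced; the labels describe capture of mRNA on oligo(dT) beads. Per the submitters' processing notes and the study's methods, the authors aligned to GRCh38.p5 with HISAT2, used StringTie 2.0.6 for assembly and quantification, and deposited FPKM values for 6357 loci. The filter on loci and the strand of the libraries are not given in the sources used here. The table has no counts, so that the depth is unknown and no count test was used.

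Values were transformed to log2(FPKM + 1) and tested over all loci with limma 3.58.1 in R 4.3.3 (lmFit, eBayes with a variance trend; Benjamini-Hochberg adjustment). The script was tested on simulated data. The members, the other gene lists and the role groups were chosen with earlier results of these data known. Named genes were, in each role group, up to 2 of the highest and lowest called members with groups that do not overlap, the 6 highest and 6 lowest of all members, the most abundant member and all members of groups of 4 or fewer, and of the other lists the 2 highest and lowest called genes; further genes were named after their values were seen. The replicate numbers did not pair the libraries: same-numbered deviations correlated at 0.0125, 0.0074 and 0.060. Coordinates, transcript sequences and shared windows came from GENCODE 29 (GRCh38), and promoters from RefSeq (GRCh38.p14). Some sequences are not reported here. Alternatives were other scalings, 0.1 as pseudocount, loci of at least 1 FPKM on average, no variance trend, the linear model and library adjustment of Ballgown, the replicate block, and each library left out. Python 3.11.15 was used with pandas 2.3.3 and matplotlib 3.10.9.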

Additional observations from a re-analysis of the deposited data

How the results depend on the processing

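The number of members called higher (3) was 6 after scaling to a common 75th percentile, 10 with median ratio scaling, 5 with the replicate block, 1 in the Ballgown model and 0 with the limit on the fold change; the number called lower (36) was 19 with median ratio scaling, 6 in the Ballgown model, 1 with the fold limit and 37 with the replicate block. The median of the members (-0.19) was -0.14 with the 75th percentile, -0.058 with median ratios, -0.21 with a common sum of FPKM, -0.11 in the Ballgown model and -0.22 (without WT replicate 1) to -0.16 (without WT replicate 3) with a library left out. Of the other splicing proteins, 8 were called higher, against 13 with median ratios, 5 with a common sum, 5 without the variance trend, 2 in the Ballgown model, 0 with the fold limit and 5 to 7 with a library left out, with 5 both without WT replicate 1 and without FN3K KO replicate 3; 40 were called lower, against 26 with median ratios, 9 in the Ballgown model and 0 with the fold limit. Among the named members, none of those called changed direction; of those not called, CLK3 was at 0.031 with median ratios and 0.030 in the Ballgown model, SRRM1 at 0.048 with median ratios and, with a library left out, between -0.18 (without FN3K KO replicate 1) and 0.0097 (without FN3K KO replicate 2), and LSM7 at 0.25 and SRSF9 at 0.17 in the Ballgown model. The cause of these changes was not tested. Of the 23 named members that were called, 19 lost the call in at least 1 fit. Over all 6357 loci, the Ballgown model called 521 lower and 606 higher. Without the pseudogenes, the readthrough and U2AF1L5, a choice made after seeing the data, 2 members were higher and 34 lower.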
